A study of Mus musculus with 23 samples.

Results

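Keratins are the intermediate filament proteins of epithelial cells, and their genes were followed here in medullary thymic epithelial cells (mTECs) with and without Aire. This gene family and its classes were chosen with earlier results of these data known. Its members were all genes whose mouse symbol is Krt followed by a number and at most 1 letter, without the keratin-associated proteins. There were 54 such genes among the 53402 gene identifiers of the count table, 28 of them type I and 26 type II. Of the 54, 27 lie on chromosome 11 and 27 on chromosome 15, and the type I gene Krt18 lies with the type II genes on chromosome 15. In the GENCODE vM21 annotation (GRCm38) the chromosome 11 genes run from Krt222 (chr11:99232761-99244085) to Krt42 (chr11:100262882-100269871), and those of chromosome 15 from Krt80 (chr15:101347444-101370162) to Krt18 (chr15:102028180-102032027). Krt74 is annotated there as a transcribed pseudogene.

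RNA was sequenced in bulk from thymic cells of C57BL/6 mice, in 23 libraries. The sort took EpCAM-positive cells without DAPI stain, CD45 or Ly51, and split them by surface MHC class II, the high gate being mTEChi and the low gate mTEClo. The groups were WT mTEClo (8 libraries, 5 male and 3 female, 5 of them from mice of 4 weeks and 3 of 5 weeks), WT mTEChi (7 libraries, 5 male and 2 female, 2 of 4 weeks and 5 of 5 weeks), and AireKO mTEClo and AireKO mTEChi (4 libraries each, all male, in each case 2 of 5 weeks and 2 of 6 weeks). The AireKO groups are called KO below. How the Aire allele was disrupted is not given in the sources used here, nor whether libraries of 1 group came from separate mice, so the p-values measure the spread between these libraries only. In KO mTEChi, replicates 1 and 2 (5 weeks) differed little, with a chi-square per degree of freedom of 1.34, as did 3 and 4 (6 weeks) with 1.28. Across these pairs it was 4.01 to 6.42. WT mTEChi replicates 1 and 2 (1.23) and WT mTEClo replicates 7 and 8 (1.41) were also close. Leaving out 1 library thus keeps its close partner in the fit. Whether such pairs came from 1 mouse was not tested.

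Keratin filaments are built from pairs of 1 type I and 1 type II protein, and each kind of epithelium uses its own pairs. Krt5 and Krt14 mark the basal layer of stratified epithelia, Krt1 and Krt10 the layers above it in epidermis, Krt4 and Krt13 those above it in mucosa, and Krt8 and Krt18 simple epithelia. Other sets are confined to the hair follicle, where the inner root sheath and the hair shaft each have their own keratins. In the thymus Krt5 and Krt14 are used as markers of the medulla and Krt8 and Krt18 of the cortex. mTECs also transcribe genes of many peripheral tissues, which Aire, a nuclear regulator, is known to promote, and some mTECs take on features of peripheral cell types, keratinocytes among them.

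Many keratin promoters held the letters TATAAA near the start. RefSeq start sites (GRCm38.p6) were found for 36 of the 54 keratins, 1 of them with 2 starts, and the 250 bases before each were searched. TATAAA was first searched on the gene's own strand, with all 6 letters within the bases 50 to 11 before the start. It was found there in 14 of 37 keratin promoters (37.8%), against 2.40% of all 32851 promoters of the same length. On either strand and anywhere in the 250 bases it was found in 17 of the 37 (45.9%, against 12.4%). GGGCGG, on either strand, was found in 2 of the 37 (5.41%, against 32.7%), and GCCNNNGGC, which reads the same on both strands, in 5 (13.5%, against 13.7%). The 4 regions shown stand for 2 keratins with the TATAAA motif whose RNA was lower in KO mTEChi and 2 others. The searched bases of those 2 held no TATAAA, and their RNA was not lower. The regions are written 5′ to 3′ on the gene's strand, and capitals mark TATAAA or GCCNNNGGC.
Krt73 (inner root sheath, chr15:101802361-101802610, minus strand): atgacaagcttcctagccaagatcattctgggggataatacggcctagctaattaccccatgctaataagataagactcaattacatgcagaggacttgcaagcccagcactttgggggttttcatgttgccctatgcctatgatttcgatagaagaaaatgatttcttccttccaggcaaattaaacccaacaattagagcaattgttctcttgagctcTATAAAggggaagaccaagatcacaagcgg
Krt10 (upper epidermis, chr11:99389365-99389614, minus strand): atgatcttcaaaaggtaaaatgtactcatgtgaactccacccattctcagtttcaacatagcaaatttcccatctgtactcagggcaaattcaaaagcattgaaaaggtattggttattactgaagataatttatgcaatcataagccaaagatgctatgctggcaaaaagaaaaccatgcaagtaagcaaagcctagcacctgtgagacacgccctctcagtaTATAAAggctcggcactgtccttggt
Krt14 (basal layer, chr11:100206031-100206280, minus strand): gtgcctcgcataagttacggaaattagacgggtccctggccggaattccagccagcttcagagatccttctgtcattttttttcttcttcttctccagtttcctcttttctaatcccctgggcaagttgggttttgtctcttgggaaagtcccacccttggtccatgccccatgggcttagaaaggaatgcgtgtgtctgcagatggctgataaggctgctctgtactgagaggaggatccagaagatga
Krt18 (simple epithelia, chr15:102027966-102028215, plus strand): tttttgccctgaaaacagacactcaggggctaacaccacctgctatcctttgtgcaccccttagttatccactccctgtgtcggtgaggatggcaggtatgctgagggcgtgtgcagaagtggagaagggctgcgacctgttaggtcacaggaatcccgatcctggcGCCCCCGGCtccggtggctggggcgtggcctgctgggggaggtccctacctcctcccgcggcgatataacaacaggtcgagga
The motif begins 30 bases before the start of Krt73 and 26 bases before that of Krt10. Of the promoters of keratins that passed the test as lower in KO mTEChi (24 genes, 25 promoters), 11 held TATAAA on either strand, as did 0 of the 4 of keratins that did not pass, 0 of the 1 that was higher and 6 of the 7 of keratins not tested. Some of these RefSeq starts lie inside the gene as GENCODE vM21 places it. The Krt14 region is wholly inside (gene at chr11:100203162-100207548), and those of Krt8 and Krt18 partly. Krt14 and Krt8 are among the 4 that did not pass, so their regions are not the bases before the GENCODE start. The region of Krt7 and 1 of those of Krt13, which were lower, also lie inside. A match is a string of letters and was not tested as a binding site.

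Library totals ran from 1602125 to 3938588 counts, and 6 libraries, called shallow here, held under 2000000 counts, namely replicates 1 and 2 of WT mTEClo, KO mTEClo and WT mTEChi. In 6 other libraries, all 4 of KO mTEChi and replicates 3 and 4 of KO mTEClo, no mitochondrially encoded gene had any count, whereas these genes held 0.261 to 0.527% of the counts of the other 17. KO and this difference in counting cannot be told apart within mTEChi, and in KO mTEClo it coincides with the age of 6 weeks and with the deeper libraries. Aire itself had 19.6 to 128 CPM (normalized counts, scaled to the library total with TMM factors) in WT mTEClo, 0 to 7.58 in KO mTEClo, 753 to 921 in WT mTEChi and 17.1 to 39.3 in KO mTEChi, lower in every KO library than in any WT library of the same gate. Among 8 markers of mTECs and of the sort, none was at 0 in any group. They include Aire and also Ptprc, the gene of CD45, which the sort excluded, so this is no check of purity. Ptprc was lower in KO than in WT mTEChi. The libraries keep no strand, so reads of Krt6a, Krt7, Krt8, Krt10, Krt12, Krt32 and Krt80 cannot be told apart from those of a gene that overlaps each on the opposite strand.

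Keratin RNA made up 0.297 ± 0.0632% of all counts in WT mTEClo (mean ± SD, n = 8), 0.284 ± 0.0578% in KO mTEClo (n = 4), 0.249 ± 0.0134% in WT mTEChi (n = 7) and 0.169 ± 0.0097% in KO mTEChi (n = 4). The summed level in KO mTEChi, 1596 to 1826 CPM, lay below that of every library of the other groups, whose lowest values were 2220 CPM in KO mTEClo, 2318 in WT mTEChi and 2484 in WT mTEClo. In bulk RNA, fewer cells of a type and less RNA per cell cannot be told apart.

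WT mTEChi held the widest range of keratins. In its libraries 48 to 53 of the 54 reached 1 CPM, against 27 to 36 in WT mTEClo, 25 to 31 in KO mTEClo and 31 to 35 in KO mTEChi, so that no library of another group reached the lowest of WT mTEChi. Thinned to the depth of the smallest library, 52.5 to 54 keratins were expected to have a count in WT mTEChi and 35.8 to 38.4 in KO mTEChi. The 5 keratins with the most counts held 46.5 to 50.3% of the keratin CPM in WT mTEChi and 62.4 to 82.4% over the libraries of the other groups. The group of WT mTEChi had counts for all 54, while 7 were at 0 counts in every library of KO mTEChi, namely Krt13, Krt28, Krt31, Krt32, Krt34, Krt39 and Krt74. Library totals with TMM factors summed to 18625875 in WT mTEChi and 10038638 in KO mTEChi, so these 2 groups were not read at the same depth. How many of all genes reached 1 CPM in each group was not compared.

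**Figure D1:**
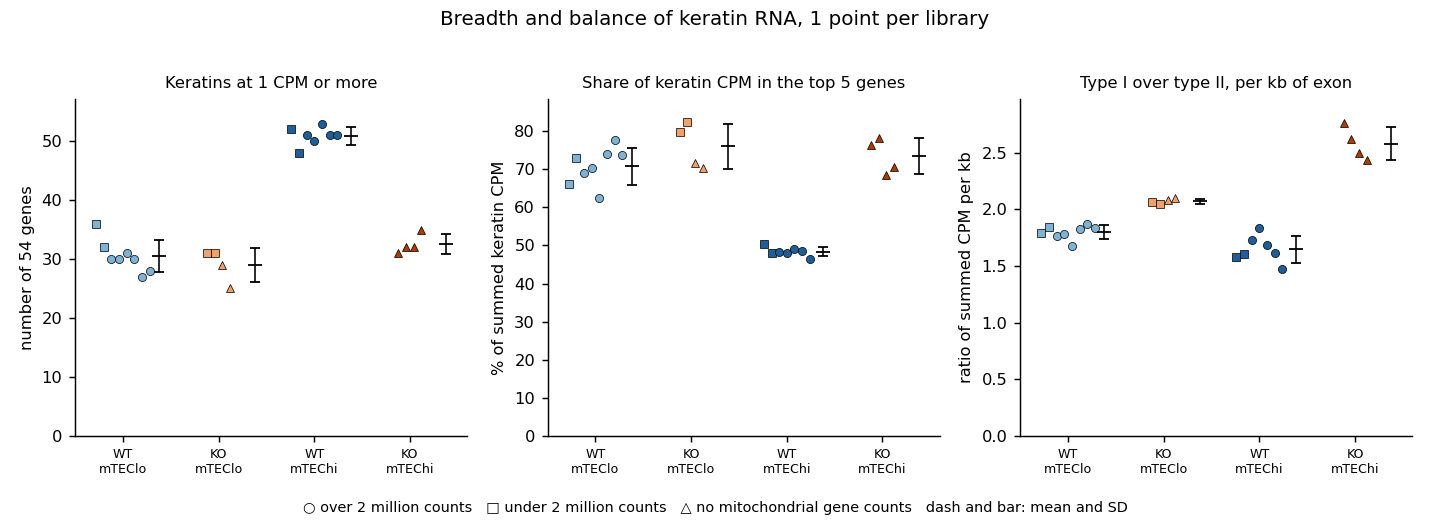
Keratin breadth and balance by library. Left, the number of the 54 keratins at 1 CPM or more; middle, the percentage of summed keratin CPM held by the 5 highest genes; right, the ratio of type I to type II summed CPM per kilobase; points are libraries, dashes and bars the group mean and SD, squares shallow libraries and triangles those without mitochondrial gene counts. The 7 WT mTEChi libraries stand alone at 48 to 53 keratins, and the 4 KO mTEChi libraries alone at type ratios of 2.44 to 2.77.

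Scaled to gene length (CPM per kilobase of merged exons), the keratins most abundant in WT mTEClo were Krt17 (313 ± 88.2, SD), a keratin of wounded epidermis and skin appendages, the basal Krt5 (265 ± 64.5), Krt18 (233 ± 52.8), Krt14 (194 ± 38.9) and Krt8 (95.7 ± 20.5). Each of these was above the next in all 8 libraries. In WT mTEChi the order was Krt17 (222 ± 13.7), Krt18 (202 ± 19.7), Krt8 (104 ± 7.84), Krt5 (84.3 ± 11.7) and Krt77 (61 ± 8.43), with Krt17 above Krt18 in 6 of 7 libraries and Krt77, a keratin of sweat ducts and upper epidermis, above Krt14 in 3 of 7. In KO mTEChi Krt18 (277 ± 21) was above Krt17 (246 ± 34.5) in 4 of 4 libraries, and Krt5 (49.2 ± 6.77) and Krt14 (47.4 ± 5.9) were not in a fixed order (2 of 4). In KO mTEClo Krt17 (331 ± 105) led in 4 of 4, and Krt18 (274 ± 57.6) was above Krt5 (248 ± 76.4) in 3 of 4.

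The summed level per kilobase of type I keratins over that of type II was 1.8 ± 0.0601 in WT mTEClo, 2.07 ± 0.0217 in KO mTEClo, 1.65 ± 0.116 in WT mTEChi and 2.58 ± 0.147 in KO mTEChi. The KO libraries were above all WT libraries of the same gate in both gates, and replicates 1 and 2 of KO mTEClo (2.06 and 2.05), which have mitochondrial counts, were close to replicates 3 and 4 (2.08 and 2.10). With the longest transcript as the gene's length the means were 1.66, 1.93, 1.58 and 2.39. Type II levels per kilobase summed to 405 to 512 in WT mTEChi and 242 to 261 in KO mTEChi, type I levels to 726 to 807 and 603 to 721.

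In mTEChi, most keratins with enough counts for the test were lower in KO than in WT. Of 45 such keratins, 37 fell, 1 (Krt18) rose and 7 did not pass (edgeR's quasi-likelihood test over 19310 genes, Benjamini-Hochberg adjusted p under 0.05), where 28.0% of all genes tested fell and 25.7% rose (53.7% in either direction). The median log2 change over the 45 was -2.19, and over all genes tested -0.01. Of 21 type I keratins 17 fell and 1 rose, and of 24 type II keratins 20 fell and 0 rose. By cluster, 17 of 20 fell on chromosome 11 and 20 of 25 on chromosome 15. For 32 of the 45 every KO library was below every WT library (19.8% of all genes tested), and for 2, Krt8 and Krt18, above (18.2%).

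Part of that count of falls follows from the choice of genes with enough counts. Of the 45, 16 reached the minimum (3.33 CPM in 4 libraries) only through WT mTEChi, so that a lower level in KO mTEChi was built into their selection. These 16 are also in the median, in the counts by type and by chromosome and in the counts without overlap. Only the calls were counted again without them. Among the other 29, 21 fell, 1 rose and 7 did not pass, where 22.8% of the 17399 genes that reached it without WT mTEChi fell and 28.4% rose. With a term for the 6 libraries without mitochondrial counts, whose size is set by KO mTEClo alone, 18 of the 37 remained lower (Krt6a, Krt10, Krt13, Krt16, Krt19, Krt23, Krt33a, Krt33b, Krt36, Krt72, Krt73, Krt75, Krt76, Krt77, Krt80, Krt83, Krt84 and Krt87), and Krt8 and Krt17 joined Krt18 among 3 that were higher. Such a term cannot separate KO from the counting difference in mTEChi, where no KO library has these counts.

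**Figure D2:**
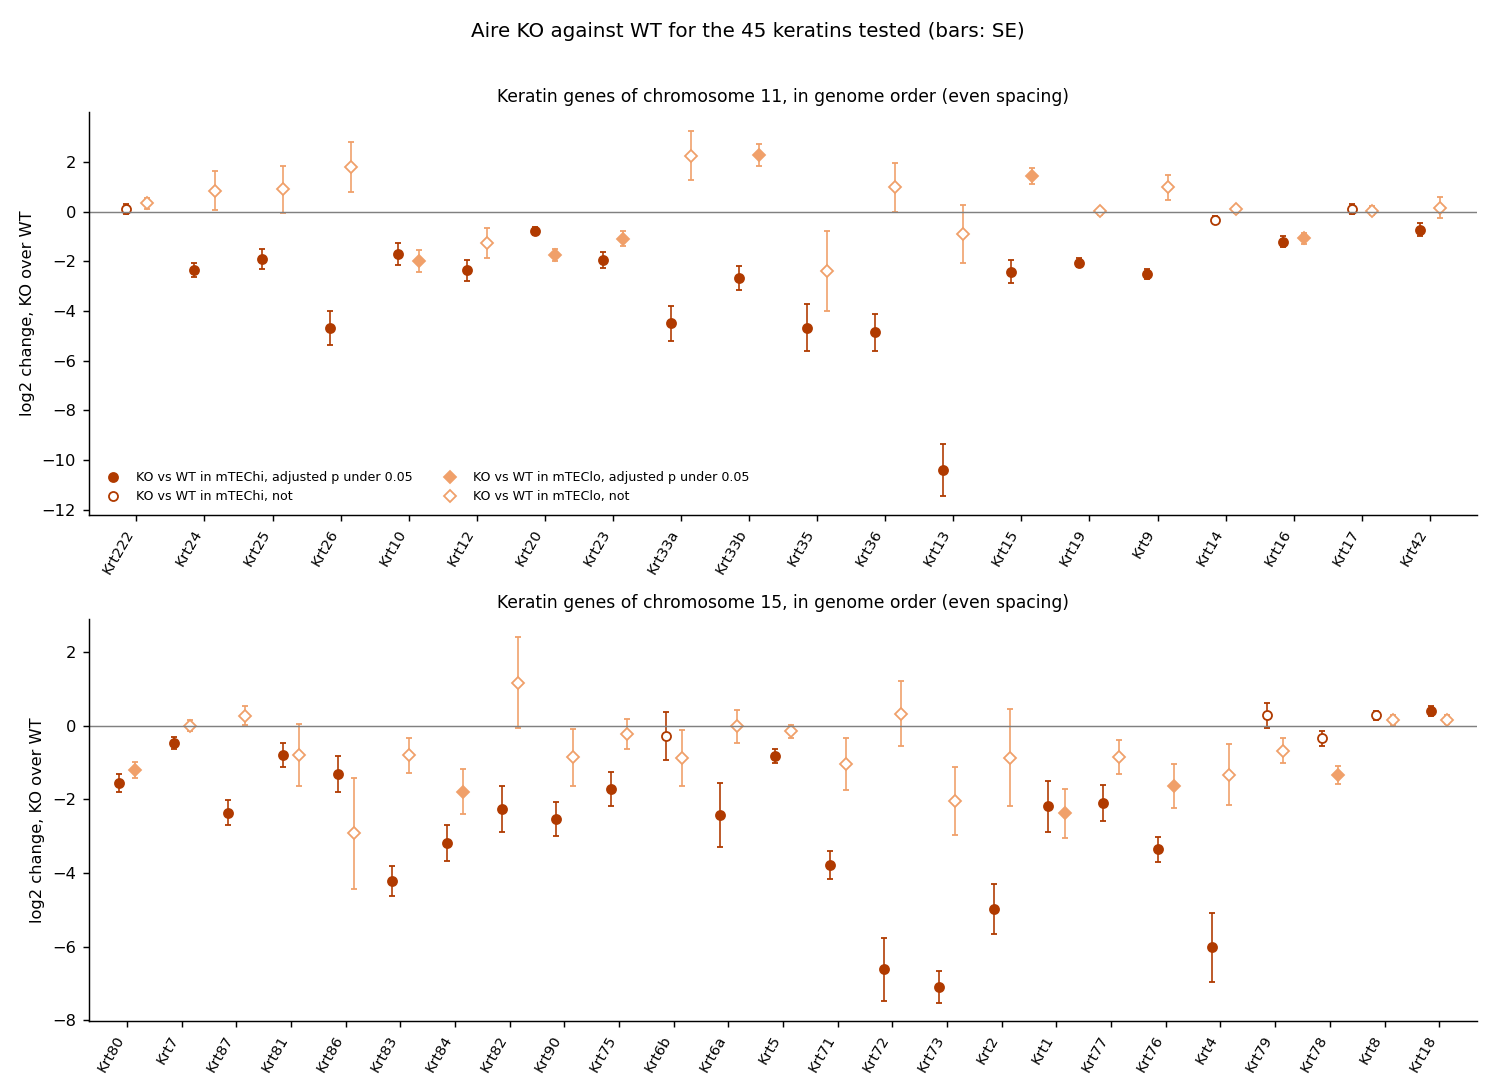
Log2 change of KO over WT (y axis, log2 scale) for the 45 keratins tested, in genome order along chromosome 11 (top) and chromosome 15 (bottom) with even spacing. Circles are mTEChi, diamonds mTEClo, filled where the adjusted p was under 0.05, bars the SE; in mTEChi the points lie below 0 for 40 of 45 keratins, and in mTEClo for 27 of 45. The point of Krt13 at -10.41 is a fitted value for a gene at 0 counts in KO mTEChi.

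In mTEClo the change was narrower. Of the same 45 keratins 9 fell, 2 rose and 34 did not pass, where 9.69% of all genes tested fell and 12.0% rose (21.7% in either direction), and the median log2 change was -0.68 (-0.24 with genes at 0 counts in a group set to the bound that 3 counts allow). The 9 were Krt1, Krt10, Krt16, Krt20, Krt23, Krt76, Krt78, Krt80 and Krt84, and the 2 were Krt15 and Krt33b. Every KO library was below every WT library for 4 of the 45 (5.79% of all genes tested) and above for 2 (5.86%). With age in the fit 3 fell (Krt20, Krt78 and Krt80) and 0 rose; without the 6 shallow libraries, which takes out the KO mice of 5 weeks, 5 fell and 3 rose, the same 3 and Krt33b among them. Of the genes that fell in mTEClo, 8 had also fallen in mTEChi, and the exception was Krt78.

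Of the 3 basal keratins, Krt5 and Krt14 were higher in mTEClo than in mTEChi. Krt5, the type II keratin of basal cells, had 446 to 850.2 CPM (median 540.1) in WT mTEClo and 665, 714, 421 and 383 CPM in KO mTEClo. WT mTEChi had 161 to 235 CPM (median 185), and KO mTEChi 105, 128, 92.8 and 107 CPM. The shallow libraries were the highest in mTEClo (741 and 850 CPM in WT, 665 and 714 in KO), and every mTEChi library was below every mTEClo library. Krt5 was lower in mTEChi than in mTEClo in WT (log2 difference -1.66 ± 0.15, adjusted p = 4.6e-10) and in KO (-2.33 ± 0.21, adjusted p = 7.4e-10). It was lower in KO than in WT mTEChi (log2 change -0.82 ± 0.19, adjusted p = 0.00088), where the groups did not overlap, and it did not pass in mTEClo (-0.15 ± 0.18, adjusted p = 0.572). With the term for libraries without mitochondrial counts the mTEChi value was -0.04, adjusted p = 0.93.

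Krt14, the type I partner of Krt5, had 255 to 464 CPM (median 323) in WT mTEClo and 425, 461, 324 and 279.7 CPM in KO mTEClo. WT mTEChi had 93.5 to 109.8 CPM (median 103), and KO mTEChi 97.8, 83.9, 75 and 76.9 CPM. It too was lower in mTEChi than in mTEClo in WT (log2 difference -1.74 ± 0.12, adjusted p = 1.5e-13) and in KO (-2.15 ± 0.16, adjusted p = 2.6e-12), with no overlap. KO against WT did not pass in mTEChi (-0.32 ± 0.15, adjusted p = 0.0663) or in mTEClo (0.09 ± 0.13, adjusted p = 0.664). Of the bases of its transcripts, read in runs of 50, 13.9% also occur in another keratin, mostly Krt16, so that its reads can in part be shared.

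Krt15, a type I keratin of basal and stem-like cells, moved in opposite directions in the 2 gates. It had 7.05 to 29 CPM (median 15.8) in WT mTEClo and 80.1, 52, 33.7 and 44.7 CPM in KO mTEClo, and every KO library was above every WT library. In mTEChi it had 17.1 to 36.8 CPM (median 21.4) in WT and 1.75, 2.46, 5.13 and 11.3 CPM in KO, and every KO library was below. The log2 change of KO was 1.44 ± 0.33, adjusted p = 0.00296 in mTEClo and -2.42 ± 0.46, adjusted p = 0.00012 in mTEChi, and the 2 changes differed (log2 difference of changes -3.86 ± 0.54, adjusted p = 1.6e-05). The rise in mTEClo did not pass with age in the fit (1.37, adjusted p = 0.0805) or without the shallow libraries (1.01, adjusted p = 0.117). The fall in mTEChi did not pass with the term for libraries without mitochondrial counts (-1.67, adjusted p = 0.0544).

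**Figure D3:**
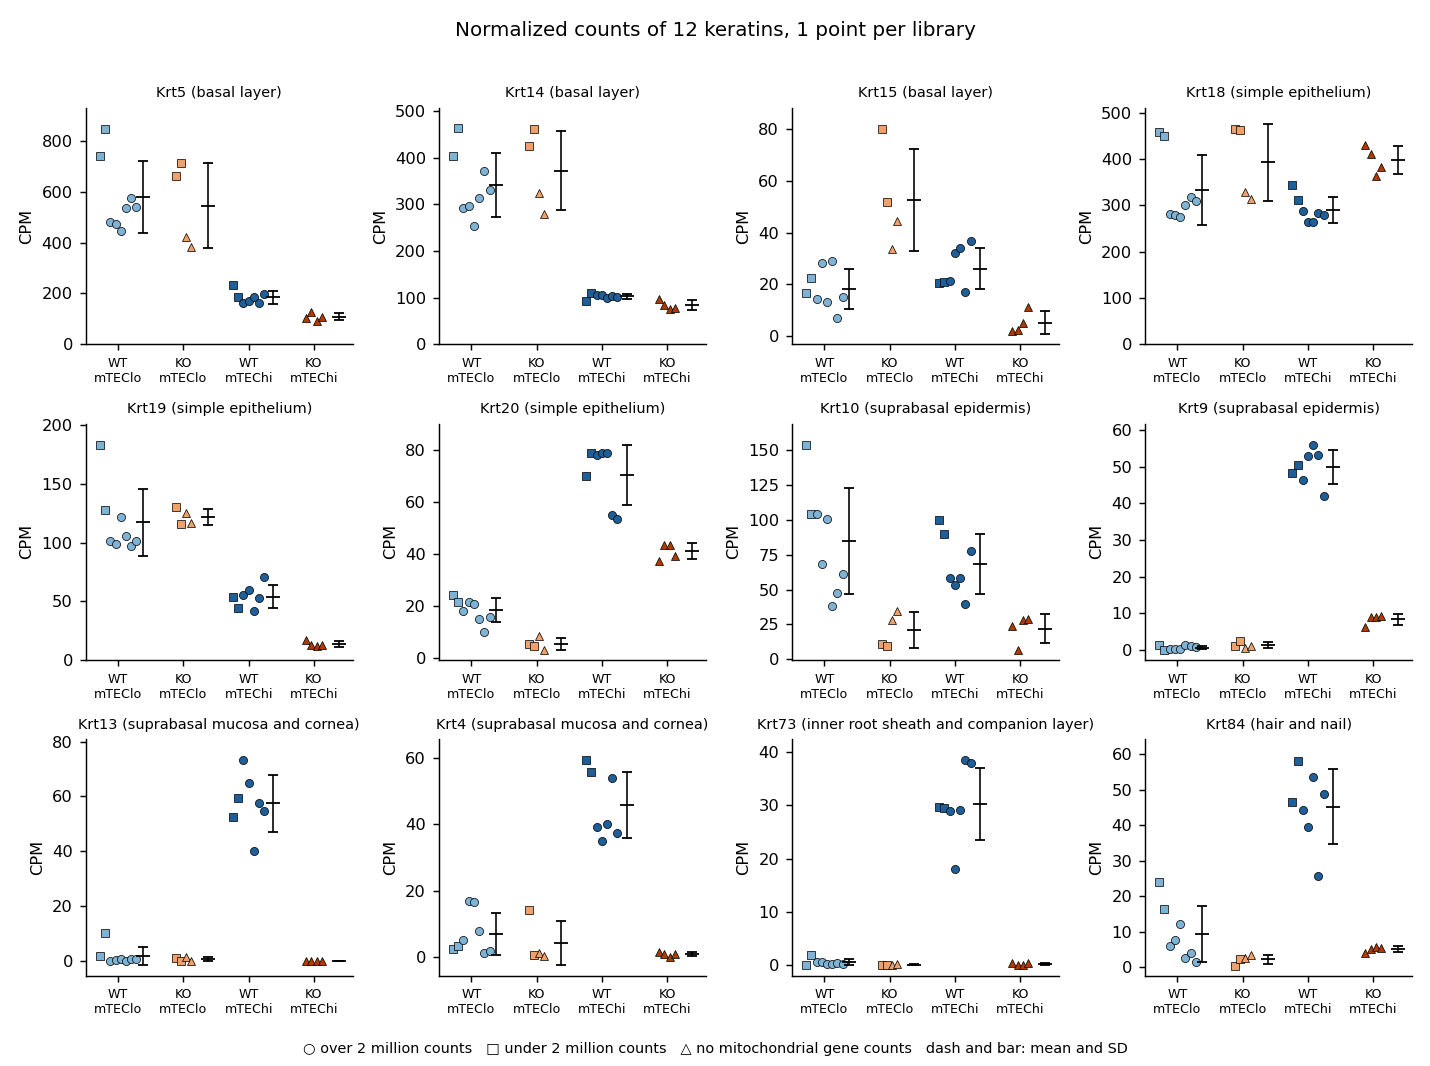
Normalized counts (y axis, CPM, linear) of 12 keratins in the 4 groups, 1 point per library, with the mean and SD of the group at its right. Squares are shallow libraries and triangles libraries without mitochondrial gene counts; Krt13, Krt4 and Krt73 are high in all 7 WT mTEChi libraries and at most 1.32 CPM in all 4 KO mTEChi libraries, while Krt5 and Krt14 are highest in mTEClo of both genotypes.

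Of the 6 keratins of simple epithelia, 4 fell and 1 rose in KO mTEChi, where 28.0 and 25.7% of all genes tested did. Krt18, a type I keratin of internal epithelia, was the 1 keratin that rose, from 263 to 344 CPM (median 283) in WT to 432, 411, 363 and 383 CPM in KO (log2 change 0.40 ± 0.13, adjusted p = 0.0134), with every KO library above every WT library. In mTEClo it had 274 to 459 CPM (median 306) in WT and 466, 463, 329 and 314 CPM in KO, where the shallow libraries were highest in both, and it did not pass (0.16 ± 0.13, adjusted p = 0.412). The rise in mTEChi did not pass in male libraries alone (0.35, adjusted p = 0.0551).

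Krt8, the type II partner of Krt18, had 152 to 257 CPM (median 173) in WT mTEClo and 251, 273, 184 and 165 CPM in KO mTEClo. WT mTEChi had 182 to 223 CPM (median 202), and KO mTEChi 276, 259.8, 229 and 255 CPM. The mTEChi groups did not overlap, but the change of 0.27 ± 0.13, adjusted p = 0.0845 did not pass, nor did that in mTEClo (0.15 ± 0.13, adjusted p = 0.44) or the difference between gates in WT (0.12 ± 0.11, adjusted p = 0.335). Per kilobase, Krt18 was 2.42 ± 0.0756 times Krt8 in WT mTEClo and 1.94 ± 0.0812 times in WT mTEChi. Markers of cortical epithelium, where this pair is known to be abundant, were also compared. Of 9 such genes 7 were higher and 0 lower in KO mTEClo (12.0 and 9.69% of all genes tested), where neither Krt8 nor Krt18 passed. In KO mTEChi, 3 of the 9 markers were higher and 4 lower (25.7 and 28.0%). Their summed level was 528 to 669 CPM in WT mTEClo, 800.0 to 969 in KO mTEClo, 857 to 972 in WT mTEChi and 1086 to 1211 in KO mTEChi, with none at 0, and their part in the Krt8 and Krt18 values was not tested.

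Krt19, a type I keratin without a fixed partner, separated the gates and, in mTEChi, the genotypes. It had 97 to 183 CPM (median 104) in WT mTEClo and 130.4, 116, 125 and 116 CPM in KO mTEClo, which overlapped (log2 change 0.01 ± 0.14, adjusted p = 0.979). In mTEChi it had 42 to 71 CPM (median 53.3) in WT and 17.1, 12.7, 11.6 and 12.5 CPM in KO, with all KO libraries below (log2 change -2.06 ± 0.19, adjusted p = 6.2e-10). The change differed between the gates (log2 difference of changes -2.07 ± 0.23, adjusted p = 1.3e-07), and Krt19 was lower in mTEChi than in mTEClo in WT (-1.11 ± 0.12, adjusted p = 2.3e-09) and in KO (-3.18 ± 0.19, adjusted p = 1.8e-14).

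Krt20, a type I keratin of intestinal surface cells and of Merkel cells, fell in both gates. It had 9.74 to 24.1 CPM (median 19.2) in WT mTEClo and 5.41, 4.38, 8.34 and 3.16 CPM in KO mTEClo. WT mTEChi had 53.2 to 78.6 CPM (median 77.8), and KO mTEChi 37.3, 43.4, 43.5 and 39.3 CPM, and the genotypes did not overlap in either gate. The log2 change was -1.75 ± 0.26, adjusted p = 1.3e-05 in mTEClo and -0.78 ± 0.18, adjusted p = 0.00051 in mTEChi, smaller in mTEChi (log2 difference of changes 0.96 ± 0.31, adjusted p = 0.0206). It was higher in mTEChi than in mTEClo, in WT by 1.96 ± 0.15 and in KO by 2.93 ± 0.26 on the log2 scale. With the term for libraries without mitochondrial counts the fall in mTEChi was -0.94, adjusted p = 0.185.

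Krt23, a less studied type I keratin of glandular epithelia, had 27.5 to 53.4 CPM (median 32) in WT mTEClo and 11.9, 8.14, 24.7 and 19.9 CPM in KO mTEClo. WT mTEChi had 35.6 to 51.4 CPM (median 44.5), and KO mTEChi 6.14, 4.09, 21.9 and 12.5 CPM. It fell in mTEChi (-1.94 ± 0.33, adjusted p = 2.7e-05) and in mTEClo (-1.09 ± 0.31, adjusted p = 0.0132) with no overlap in either gate. Krt7, a type II keratin of ducts, had 304 to 403 CPM (median 353) in WT mTEClo and 452, 471, 291 and 245 CPM in KO mTEClo, with the shallow KO libraries above all WT libraries and the deeper KO libraries below them. In mTEChi it had 126 to 166 CPM (median 133) in WT and 129, 123, 80.8 and 78.1 CPM in KO. Its fall in mTEChi (-0.47 ± 0.16, adjusted p = 0.0169) was lost without KO replicate 3 (-0.40, adjusted p = 0.0506) or replicate 4 (-0.35, adjusted p = 0.0838) and with age in the fit (-0.26, adjusted p = 0.208). With the term for libraries without mitochondrial counts its sign turned (0.32, adjusted p = 0.224).

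Among the 4 keratins known to be induced in wounded or hyperproliferating epidermis, Krt16 fell in both gates, Krt6a fell in mTEChi, and Krt17 and Krt6b did not pass for KO. Krt17 had 351 to 701 CPM (median 454) in WT mTEClo and 594, 699, 418 and 343 CPM in KO mTEClo. WT mTEChi had 321 to 385 CPM (median 337), and KO mTEChi 452, 386, 326 and 360.0 CPM. The genotypes overlapped in both gates, and KO did not pass in mTEChi (0.11 ± 0.19, adjusted p = 0.656) or mTEClo (0.04 ± 0.19, adjusted p = 0.92). Krt16, its type I relative, had 20.5 to 56.3 CPM (median 39.8) in WT mTEClo and 16.2, 11.9, 27.7 and 18.2 CPM in KO mTEClo. WT mTEChi had 33.9 to 53.9 CPM (median 40.7), and KO mTEChi 14.5, 14.7, 20.9 and 23.8 CPM. The fall of Krt16 passed in both gates (-1.08 ± 0.22, adjusted p = 0.00095 in mTEClo, -1.21 ± 0.23, adjusted p = 6.8e-05 in mTEChi).

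Krt6a and Krt6b are near-identical type II genes that share 44.8% of the 50-base runs of their transcripts, so their split is uncertain. Krt6a had 2.69 to 17.8 CPM (median 10.0) in WT mTEClo and 4.33, 3.13, 11.3 and 13.1 CPM in KO mTEClo. In mTEChi it had 0.645 to 3.93 CPM (median 3.6) in WT and 0.439, 0.818, 0.685 and 0 CPM in KO, and it was below mTEClo in WT (-1.61 ± 0.40, adjusted p = 0.00082) and KO (-4.03 ± 0.76, adjusted p = 5.8e-05). Its fall in KO mTEChi (-2.44 ± 0.87, adjusted p = 0.0202) rested on 5 counts over 4 libraries and was lost without replicate 4 (-2.07, adjusted p = 0.0598). Krt6b did not pass in any of the 5 comparisons.

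Of 8 keratins of the upper epidermis, 6 fell in KO mTEChi and 4 in KO mTEClo, and none rose. Of all genes tested, 28.0% fell and 25.7% rose in KO mTEChi, and 9.69% fell and 12.0% rose in KO mTEClo. Krt10, the type I keratin of the first cells above the basal layer, had 38.4 to 153 CPM (median 84.5) in WT mTEClo and 10.8, 9.39, 28.3 and 35 CPM in KO mTEClo. WT mTEChi had 39.4 to 99.7 CPM (median 58.6), and KO mTEChi 23.7, 6.96, 28.1 and 29.2 CPM, with no overlap of genotypes in either gate. Its log2 change was -1.99 ± 0.43, adjusted p = 0.00264 in mTEClo and -1.70 ± 0.44, adjusted p = 0.00305 in mTEChi.

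Krt1, the type II partner of Krt10, had 13.8 to 127 CPM (median 38.6) in WT mTEClo and 2.71, 7.51, 5.66 and 19.4 CPM in KO mTEClo. WT mTEChi had 18.1 to 72 CPM (median 32.2), and KO mTEChi 7.9, 16, 8.22 and 2.51 CPM. The spread within WT mTEClo was wide, and the mTEClo groups overlapped. It fell in mTEClo (-2.38 ± 0.66, adjusted p = 0.0146; -2.16, adjusted p = 0.0553 without KO replicate 3) and in mTEChi (-2.19 ± 0.69, adjusted p = 0.0117). Neither Krt1 nor Krt10 differed past the threshold between mTEChi and mTEClo in WT (-0.39 ± 0.45, adjusted p = 0.45 for Krt1, -0.35 ± 0.30, adjusted p = 0.313 for Krt10).

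Krt80, a type II keratin made late in epidermal differentiation, had 26.7 to 68.4 CPM (median 35.6) in WT mTEClo and 16.8, 12.5, 23.5 and 23.8 CPM in KO mTEClo. WT mTEChi had 23.9 to 45.7 CPM (median 34.7), and KO mTEChi 14.5, 8.59, 14 and 11.7 CPM. Krt80 fell in both gates without overlap (-1.20 ± 0.23, adjusted p = 0.00034 and -1.55 ± 0.25, adjusted p = 7.9e-06). Krt77 had 62.7 to 146 CPM (median 99.6) in WT mTEClo and 27.1, 26.9, 92.6 and 68.7 CPM in KO mTEClo. WT mTEChi had 158 to 223 CPM (median 169), and KO mTEChi 25, 2.46, 83.2 and 55.1 CPM. It fell in mTEChi (-2.11 ± 0.49, adjusted p = 0.0013), where replicate 2 of KO was lowest, and did not pass in mTEClo (-0.85 ± 0.47, adjusted p = 0.21). Krt78, of stratified epithelia, was the 1 keratin that fell in mTEClo (19.1 to 81.6 CPM (median 39.7) in WT, 14.6, 16.9, 22.6 and 16.5 CPM in KO; -1.35 ± 0.24, adjusted p = 0.00022) and did not pass in mTEChi (39.3 to 66.3 CPM (median 52.3) in WT, 45.6, 34.8, 46.9 and 52.6 CPM in KO; -0.35 ± 0.21, adjusted p = 0.173). The 2 changes of Krt78 differed (log2 difference of changes 1.00 ± 0.31, adjusted p = 0.0185; 0.94, adjusted p = 0.0521 without KO mTEClo replicate 4).

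Krt9, the type I keratin of palm and sole skin, was almost an mTEChi gene. It had 0 to 1.22 CPM (median 0.431) in WT mTEClo and 1.08, 2.5, 0.596 and 0.971 CPM in KO mTEClo. WT mTEChi had 42.1 to 56.1 CPM (median 50.4), and KO mTEChi 6.14, 9.0, 8.9 and 9.19 CPM. It was higher in mTEChi in WT (6.36 ± 0.22, adjusted p = 3.4e-20) and in KO (2.86 ± 0.35, adjusted p = 4.1e-08), and fell in KO mTEChi (-2.52 ± 0.20, adjusted p = 4.1e-11), all without overlap. Krt2, of the uppermost epidermis, had 8.71 to 41.4 CPM (median 13.9) in WT mTEChi and 0, 0, 0 and 2.51 CPM in KO mTEChi (-4.98 ± 0.67, adjusted p = 1e-06), and at most 1.72 CPM in any mTEClo library. Krt2 reached the count minimum only through WT mTEChi, so a lower level in KO mTEChi was built into its selection. Krt79, a keratin of sebaceous ducts, did not pass in any of the 5 comparisons.

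Other keratinocyte genes moved beside these. Of 11 genes of keratinocyte-like mTECs that are no keratins, 6 were lower and 1 higher in KO mTEChi (28.0 and 25.7% of all genes tested), and 4 were lower and 0 higher in KO mTEClo (9.69 and 12.0%). Their summed level was 420.1 to 768 CPM in WT mTEClo, 212 to 537 in KO mTEClo, 357 to 465 in WT mTEChi and 165 to 338 in KO mTEChi, with none at 0. Whether fewer such cells account for the lower keratins was not tested. Of 9 thymocyte markers, 5 were tested, and 4 of these were lower in KO mTEChi; the 9 summed to 67.1 to 85.5 CPM in WT mTEChi and 39.4 to 51.4 in KO mTEChi, with none at 0 there. Of 8 markers of fibroblasts 5 were lower and 1 higher in KO mTEChi, summing to 312 to 467 CPM in WT and 227 to 246 in KO, with none at 0. Of 8 dendritic cell and macrophage markers 7 were tested, 4 were lower and 2 higher there, and the 8 summed to 286 to 355 CPM in WT and 364 to 422 in KO, with none at 0. Of 5 B cell markers 4 were tested, 2 were higher and 1 lower there, and the 5 summed to 60.0 to 89.4 CPM in WT and 107 to 149.8 in KO, with none at 0. The sums of the B cell, the dendritic cell and macrophage, and the fibroblast markers also moved without overlap in mTEClo. The B cell markers summed to 12.8 to 19.5 CPM in WT mTEClo and 23.8 to 36.9 in KO mTEClo, where 2 were higher and 0 lower. Those of dendritic cells and macrophages summed to 34.4 to 63.8 and 108 to 139.6 CPM, with 2 higher and 0 lower and Clec9a at 0 in KO. Those of fibroblasts summed to 535 to 685 and 356 to 418 CPM, with 1 lower and 2 higher. In KO mTEClo, 6 of 8 markers of microfold-like mTECs were lower and 0 higher. Their sums overlapped, at 586 to 910.4 CPM in WT and 379.8 to 633 in KO, with none at 0. The part of these cell types in the keratin values was not tested.

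**Figure D4:**
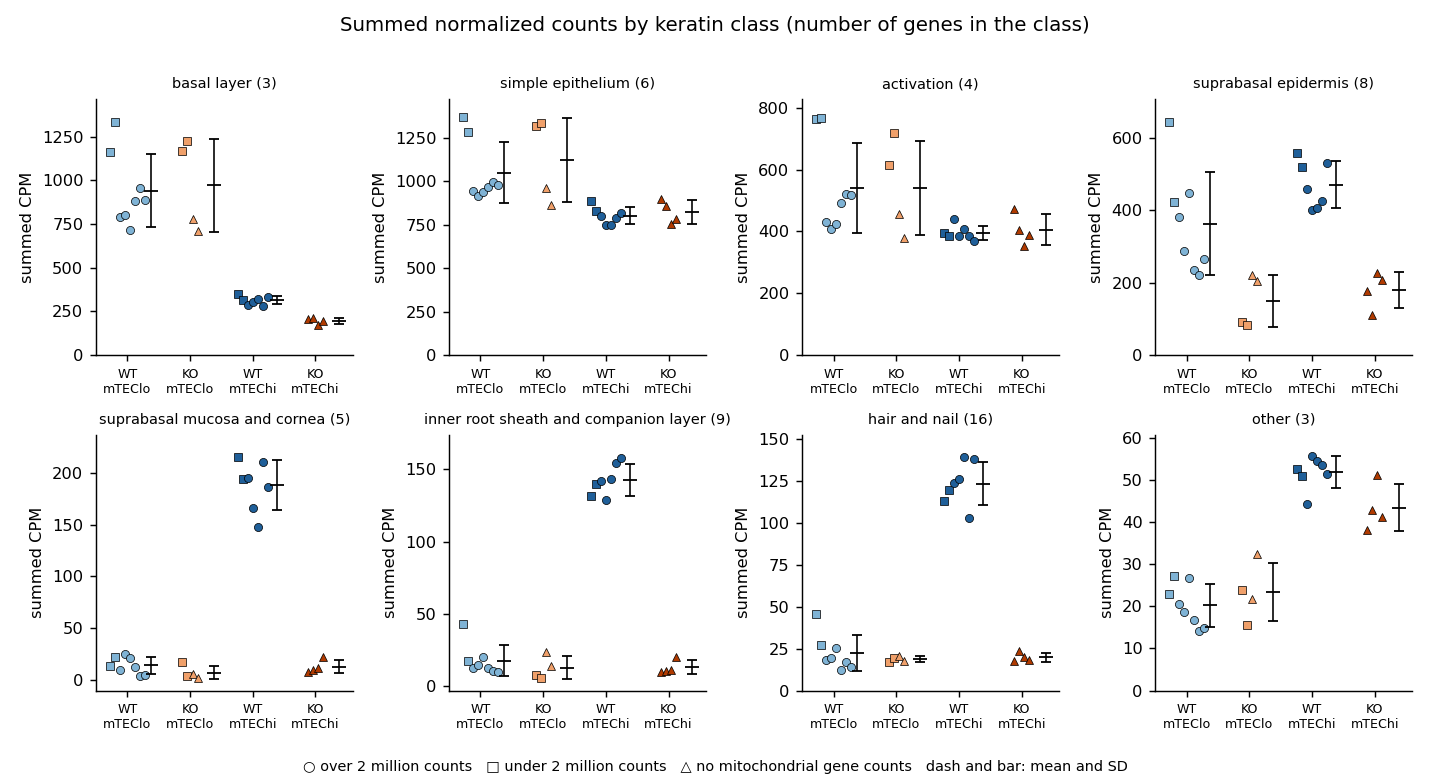
Summed CPM (y axis, linear) of the 8 classes of keratins in each library, by group, with the number of genes of the class in its title and the group mean and SD at the right of the points. The mucosal, inner root sheath and hair classes stand at 103 to 215 CPM in WT mTEChi and at 25.4, 43.1 and 46.0 CPM or below in every other library, in that order of the classes, while the basal class is highest in mTEClo.

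The 5 keratins of mucosa and cornea all fell in KO mTEChi (28.0% of all genes tested), without overlap (19.8%), although 2 of them reached the count minimum only through WT mTEChi. Krt13, the type I keratin of oral and oesophageal lining, was the extreme case. It had 0 to 10.2 CPM (median 0.636) in WT mTEClo, 1.08, 0, 1.49 and 0 CPM in KO mTEClo and 40.2 to 73.2 CPM (median 57.4) in WT mTEChi, and 0 counts in all 4 KO mTEChi libraries. Set against 3 counts over the KO group, it was at least 192-fold lower in KO mTEChi (adjusted p = 1.7e-07). Krt4, its type II partner, had 1.01 to 16.8 CPM (median 4.14) in WT mTEClo and 14.1, 0.626, 1.19 and 0.243 CPM in KO mTEClo. WT mTEChi had 35 to 59.5 CPM (median 40.2), and KO mTEChi 1.32, 0.818, 0 and 0.835 CPM (-6.01 ± 0.94, adjusted p = 2.4e-05). Krt4 overlapped in mTEClo, where replicate 1 of KO stood near the highest WT libraries. With the term for libraries without mitochondrial counts the mTEChi value of Krt4 was -2.57, adjusted p = 0.459.

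Krt76, a type II keratin of hard palate and tongue, had 0.672 to 6.89 CPM (median 3.23) in WT mTEClo and 0.541, 1.88, 2.08 and 0.728 CPM in KO mTEClo. WT mTEChi had 44.7 to 72.1 CPM (median 53.6), and KO mTEChi 2.63, 2.05, 6.5 and 14.6 CPM. It fell in mTEChi (-3.35 ± 0.34, adjusted p = 1.4e-08); its fall in mTEClo (-1.65 ± 0.59, adjusted p = 0.0479) was lost without any 1 of 9 libraries, among them all 4 of KO (log2 change -2.09 to -1.34, adjusted p 0.0542 to 0.172). Krt24, a type I keratin of cornea and other stratified epithelia, had 13.2 to 29.1 CPM (median 19.7) in WT mTEChi and 3.95, 4.91, 3.77 and 3.76 CPM in KO mTEChi (-2.36 ± 0.27, adjusted p = 4.3e-08), and at most 1.08 CPM in mTEClo. Krt12, the type I keratin of the cornea, had 3.6 to 9.28 CPM (median 7.85) and 0, 2.05, 1.37 and 2.51 CPM (-2.36 ± 0.42, adjusted p = 2.9e-05). All 5 were higher in WT mTEChi than in WT mTEClo (36.7% of all genes tested), by log2 differences of 2.27 (Krt12) to 6.53 (Krt24), without overlap (24.8%).

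Of the 9 keratins of the inner root sheath and companion layer of the hair follicle, the 6 tested had medians of 3.93 to 58.4 CPM in WT mTEChi. In WT mTEClo 5 of the 6 tested had medians of 0 to 1.62 CPM, with single libraries up to 9.76 CPM for Krt71, and the sixth, Krt75, had a median of 10.8 CPM. All 6 that were tested fell in KO mTEChi (28.0% of all genes tested) without overlap (19.8%). In mTEClo 0 passed (21.7% of all genes tested), and 5 of the 6 reached the count minimum only through WT mTEChi. Krt73 had 0 to 1.91 CPM (median 0.32) in WT mTEClo and 0, 0, 0 and 0.243 CPM in KO mTEClo. WT mTEChi had 18.1 to 38.4 CPM (median 29.4), and KO mTEChi 0.439, 0, 0 and 0.418 CPM. With 560 counts in WT and 2 in KO mTEChi it was 151-fold lower, with a 95% counting interval of 41.6 to 1249 (adjusted p = 4.6e-13). Krt72 fell there from 7.25 to 22.8 CPM (median 13) to 0.439, 0, 0 and 0 CPM, 141-fold lower, with a 95% counting interval of 25 to 5577 (adjusted p = 3.9e-07).

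Krt71, of the same layer, had 0.636 to 9.76 CPM (median 1.62) in WT mTEClo and 2.71, 1.25, 0.893 and 0.486 CPM in KO mTEClo. WT mTEChi had 50.8 to 70.7 CPM (median 58.4), and KO mTEChi 3.07, 1.23, 4.45 and 9.19 CPM, where it fell (-3.79 ± 0.38, adjusted p = 1.3e-08). These 3 type II genes and Krt74 lie side by side on chromosome 15, between Krt5 and Krt2. Krt25, a type I partner of this layer, had 6.07 to 14.2 CPM (median 9.36) in WT mTEChi and 2.19, 3.27, 2.74 and 1.67 CPM in KO (-1.92 ± 0.40, adjusted p = 0.0002), and Krt26, beside it on chromosome 11, had 3.23 to 5.44 CPM (median 3.93) and 0, 0, 0.342 and 0 CPM, 42-fold lower, with a 95% counting interval of 7.33 to 1682 (adjusted p = 5.4e-06). Krt75, of the companion layer, was present in all groups. It had 6.3 to 27.6 CPM (median 10.8) in WT mTEClo and 2.71, 3.76, 19.7 and 12.6 CPM in KO mTEClo, and fell from 12.5 to 22.6 CPM (median 16.8) to 2.63, 5.73, 3.42 and 8.77 CPM in mTEChi (-1.71 ± 0.46, adjusted p = 0.00293). The 3 others, Krt27, Krt28 and Krt74, were too low for the test and lower in every KO than in every WT mTEChi library.

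Of 16 keratins of the hair shaft and nail, 10 were tested and all 10 fell in KO mTEChi (28.0% of all genes tested), 7 of which reached the count minimum only through WT mTEChi. Their summed level was 103 to 139 CPM in WT mTEChi and 17.6 to 23.3 in KO mTEChi, against 12.5 to 46 in WT mTEClo. Krt84, a type II keratin of nail and tongue papillae, had 1.5 to 24.1 CPM (median 6.86) in WT mTEClo and 0.541, 2.5, 2.68 and 3.4 CPM in KO mTEClo. WT mTEChi had 25.8 to 58.2 CPM (median 46.5), and KO mTEChi 3.95, 5.32, 5.82 and 5.43 CPM (-3.18 ± 0.49, adjusted p = 1.1e-05). Its fall in mTEClo (-1.80 ± 0.62, adjusted p = 0.0403) was lost without any 1 of 8 libraries, among them all 4 of KO (log2 change -2.09 to -1.44, adjusted p 0.0538 to 0.0997). Krt83 fell in mTEChi from 11.2 to 23.2 CPM (median 17.4) to 0.439, 0.818, 1.37 and 0.835 CPM (-4.22 ± 0.42, adjusted p = 2.3e-09), and Krt36 from 6.0 to 8.46 CPM (median 6.78) to 0, 0, 0.685 and 0 CPM, 35.8-fold lower, with a 95% counting interval of 9.73 to 299 (adjusted p = 2.8e-06).

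Krt87 was present in both gates, at 4.58 to 9.19 CPM (median 7.63) in WT mTEClo, 11.9, 10.6, 8.04 and 4.61 CPM in KO mTEClo and 7.1 to 11.4 CPM (median 9.0) in WT mTEChi, and it fell to 1.75, 1.23, 1.37 and 2.09 CPM in KO mTEChi (-2.36 ± 0.33, adjusted p = 9e-07). Krt33b, a type I shaft keratin, went opposite ways in the gates, as Krt15 did. It had 0 to 1.02 CPM (median 0.718) in WT mTEClo and 2.71, 3.13, 4.47 and 4.37 CPM in KO mTEClo, and 3.0 to 7.85 CPM (median 3.93) in WT mTEChi and 0, 0.409, 0.685 and 1.67 CPM in KO mTEChi, without overlap in either gate. The log2 change of KO was 2.28 ± 0.43, adjusted p = 0.00031 in mTEClo and -2.68 ± 0.49, adjusted p = 4.1e-05 in mTEChi, and the 2 differed (-4.96 ± 0.62, adjusted p = 1e-06). The rise in mTEClo did not pass with age in the fit (adjusted p = 0.185). Of the bases of Krt33b transcripts, read in the same runs as those of Krt14, 24.2% also occur in another keratin. For Krt83, Krt33a and Krt87 it was 22.1, 17.8 and 17.0%, so reads of these keratins can in part be shared. Krt33b, like Krt33a, reached the count minimum only through WT mTEChi, so a lower level in KO mTEChi was built into its selection. Its neighbour Krt33a had 1.86 to 10.0 CPM (median 5.1) in WT mTEChi and 0.439, 0, 0.342 and 0 CPM in KO mTEChi, 29.1-fold lower, with a 95% counting interval of 7.86 to 243 (adjusted p = 5.3e-06), and 2 counts in WT mTEClo and 6 in KO mTEClo.

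Krt81 and Krt86, which share 682 of the 1914 50-base runs of Krt86, had the smallest falls among the 10. Krt81 had 9.68 to 14.8 CPM (median 12.6) in WT mTEChi and 7.02, 11, 6.85 and 4.18 CPM in KO mTEChi (-0.80 ± 0.33, adjusted p = 0.0432), and Krt86 3.0 to 6.45 CPM (median 5.71) and 2.19, 3.68, 2.05 and 0 CPM (-1.32 ± 0.49, adjusted p = 0.0251). The groups overlapped for both. The calls were lost without any 1 of 5 libraries for Krt81 (WT replicates 1 and 3, KO replicates 1, 3 and 4; log2 change -0.80 to -0.61, adjusted p 0.0702 to 0.15) and of 3 for Krt86 (WT replicates 3 and 6, KO replicate 4; -1.23 to -0.92, 0.0524 to 0.0895). Krt35 fell in KO mTEChi from 0.6 to 6.43 CPM (median 4.8) to 0, 0, 0 and 0.418 CPM, 38.8-fold lower, with a 95% counting interval of 6.75 to 1554 (adjusted p = 0.00021). Krt82 fell there from 2.48 to 8.7 CPM (median 4.23) to 0.878, 0, 0.685 and 1.67 CPM (-2.27 ± 0.63, adjusted p = 0.0032). Of the 6 not tested, Krt32, Krt34, Krt39 and Krt40 were lower in every KO than in every WT mTEChi library, and Krt31 and Krt88 overlapped.

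The 3 keratins outside these classes were Krt222, Krt42 and Krt90. Krt222, a truncated type I relative, did not pass for KO, with 25 to 39 CPM (median 34.3) in WT mTEChi and 30.3, 32.7, 45.9 and 36.3 CPM in KO (0.11 ± 0.20, adjusted p = 0.651). Krt42, a type I gene next to Krt17, fell from 6.2 to 15.7 CPM (median 11.6) to 7.02, 7.37, 4.79 and 3.76 CPM (-0.73 ± 0.25, adjusted p = 0.0164; -0.58, adjusted p = 0.0764 without KO replicate 4). Krt90, a type II gene, fell from 4.53 to 11 CPM (median 7.43) to 0.878, 2.86, 0.685 and 1.25 CPM (-2.54 ± 0.46, adjusted p = 4.1e-05). Krt90 reached the count minimum only through WT mTEChi, so a lower level in KO mTEChi was built into its selection.

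Between the gates, in WT, 26 of the 45 keratins were higher in mTEChi, 6 were lower and 13 did not pass, where 36.7% of all genes tested were higher and 33.4% lower (70.1% in either direction). Every mTEChi library was above every mTEClo library for 25 (24.8% of all genes tested) and below for 4 (19.5%). The 6 that were lower were Krt5, Krt6a, Krt7, Krt14, Krt17 and Krt19. The 16 keratins that reached the count minimum only through WT mTEChi were all among the 26, and of the other 29, 10 were higher and 6 lower, where 30.9 and 37.1% of all such genes were. By class, 9 of 10 hair keratins, 5 of 6 inner root sheath keratins and 5 of 5 mucosal keratins were higher. Of these, 7 hair, 5 inner root sheath and 2 mucosal keratins reached the count minimum only through WT mTEChi. A higher level in WT mTEChi was built into their selection. Lower were 2 of 3 basal, 2 of 6 simple and 2 of 4 activation keratins, with the share of the simple keratins near that of all genes. Of the 26, Krt77 no longer passed without any 1 of 10 of the 15 WT libraries (log2 difference 0.73 to 0.85, adjusted p 0.0533 to 0.0834). The median log2 difference over the 45 was 2.27, and over all genes tested 0.003. This median and the counts without overlap include the 16 keratins that reached the count minimum only through WT mTEChi.

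In KO, 11 keratins were higher in mTEChi, 9 were lower and 25 did not pass, with 29.2% of all genes tested higher and 28.0% lower (57.2% in either direction). The groups did not overlap for 8 above and 8 below (25.0 and 22.1% of all genes tested). In both genotypes 10 were higher (Krt9, Krt20, Krt24, Krt25, Krt42, Krt71, Krt76, Krt81, Krt86 and Krt222) and 5 lower (Krt5, Krt6a, Krt7, Krt14 and Krt19), and Krt33b was higher in WT and lower in KO. Krt15, Krt80 and Krt87 were lower in mTEChi in KO and did not pass in WT, and Krt78 was higher in KO and did not pass in WT. With the KO libraries fitted alone 23 of the 45 had enough counts for the test, and 5 were higher (Krt9, Krt20, Krt78, Krt81 and Krt222) and 7 lower; the other 6 of the 11 were not tested there. A block by replicate number treats same-numbered KO libraries as pairs. With it, the same 5 of the 23 were higher and 9 were lower, Krt17 and Krt23 in addition to those 7. The call of Krt222 was lost without KO mTEChi replicate 3 (0.52, adjusted p = 0.0619), that of Krt71 without any 1 of 3 libraries (KO mTEClo 3 or 4, KO mTEChi 4; adjusted p 0.0546 to 0.118) and that of Krt80 without any 1 of 4 (KO mTEClo 3 or 4, KO mTEChi 2 or 4; 0.0604 to 0.108).

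The change with KO differed between the gates for 17 keratins, 15 of them more negative in mTEChi and 2, Krt20 and Krt78, more positive, where 14.0 and 10.8% of all genes tested did. Of the 15, 8 (Krt13, Krt26, Krt33a, Krt33b, Krt36, Krt71, Krt72 and Krt83) reached the count minimum only through WT mTEChi. Of the other 29 keratins 7 were more negative and 2 more positive, where 12.2 and 12.0% of all such genes were. The 15 were Krt4, Krt5, Krt9, Krt13, Krt15, Krt19, Krt24, Krt26, Krt33a, Krt33b, Krt36, Krt71, Krt72, Krt83 and Krt87. The largest differences among keratins with more than 3 counts in each of the 4 groups were those of Krt33b and Krt15, given above, Krt4 (-4.67 ± 1.49, adjusted p = 0.0271) and Krt9 (-3.50 ± 0.58, adjusted p = 4.7e-05). That of Krt4 no longer passed without KO mTEClo replicate 1 (-2.49, adjusted p = 0.392) or KO mTEChi replicate 3 (-4.26, adjusted p = 0.0558). For Krt5 the difference was -0.67 ± 0.25, adjusted p = 0.0499, and it no longer passed without any 1 of 15 libraries (-0.68 to -0.52, adjusted p 0.0574 to 0.121).

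Genes of structures that hold keratin filaments moved in both directions in KO mTEChi, where 28.0% of all genes tested fell and 25.7% rose. Of 15 desmosome genes 5 fell and 1 rose there, a share of falls near that of all genes. In mTEClo 5 fell and 1 rose, where 9.69% of all genes tested fell and 12.0% rose. Dsp, whose product ties keratin filaments to desmosomes, had 801 to 1136 CPM in WT mTEChi and 570.0 to 676 CPM in KO mTEChi (-0.61 ± 0.11, adjusted p = 2.8e-05), and 1240 to 1806 CPM in WT mTEClo and 1038 to 1232 CPM in KO mTEClo (-0.41 ± 0.11, adjusted p = 0.00722). Of 9 genes of hemidesmosomes and their laminin, which anchor basal cells, 3 rose and 1 fell in KO mTEChi, with the rises near the share of all genes. In WT, 8 of the 9 were lower in mTEChi than in mTEClo, where 33.4% of all genes tested were. Lama3, a laminin chain, had 125 to 164 CPM in WT mTEChi and 218 to 284 CPM in KO (0.75 ± 0.08, adjusted p = 2.5e-08). In KO mTEClo 4 of the 9 fell, Lama3 among them, and 0 rose, where 9.69% of all genes tested fell and 12.0% rose. The change of Lama3 with KO differed between the gates. Of 6 plakins and filament linkers 3 fell and 1 rose in KO mTEChi, where 53.7% of all genes tested changed in either direction.

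Of 7 genes of S100-fused proteins, which bundle keratin filaments, 3 fell and 0 rose in KO mTEChi (28.0 and 25.7% of all genes tested). Tchh, trichohyalin of the inner root sheath, had 33.6 to 74.1 CPM in WT mTEClo and 23.8 to 38.1 CPM in KO mTEClo. WT mTEChi had 145 to 284 CPM, and KO mTEChi 42.6 to 65.2 CPM (-1.84 ± 0.17, adjusted p = 2.7e-09). Of 15 tested genes of other intermediate filaments (neurofilaments, lamins, desmin and others) 9 fell and 3 rose in KO mTEChi, and 1 fell and 0 rose in KO mTEClo (9.69 and 12.0% of all genes tested). Nefl, a neurofilament subunit, had 9.29 to 20.7 CPM in WT mTEChi and 0 counts in all 4 KO mTEChi libraries.

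Of 16 tested genes of transcription factors known to act on keratin genes, 5 fell and 2 rose in KO mTEChi, where 28.0 and 25.7% of all genes tested did, and 3 fell and 2 rose in KO mTEClo, where 9.69 and 12.0% did. Trp63, the factor of basal epithelial cells, had 427 to 551 CPM in WT mTEClo and 471 to 563 CPM in KO mTEClo. WT mTEChi had 157 to 189 CPM, and KO mTEChi 158 to 249.9 CPM. Like Krt5 and Krt14, Trp63 was lower in mTEChi than in mTEClo in WT (-1.56 ± 0.09, adjusted p = 2.7e-15); KO did not pass in either gate. Grhl2, a factor of epithelial junctions, fell in KO mTEChi from 71 to 96.4 CPM to 42.8 to 46.5 CPM (-0.86 ± 0.10, adjusted p = 2.2e-08). Of 58 keratin-associated protein genes 2 had enough counts for the test and 0 passed for KO in either gate.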

How the data were processed

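The submitters deposited raw counts per Ensembl gene in 1 table for all 23 libraries; the submitters' processing notes list, without roles or order, HTSeq 0.11.2, edgeR, Picard 2.21.1, STAR 2.7.3a, SAMtools 1.9 and fastp 0.20.0, and the builds mm10 and GRCm38. Libraries were made by a modified RamDA-seq, per the labels' protocols, in which oligo-dT and random-type primers start the cDNA and strand is not kept. A second table the authors deposited holds a normalized count signal, which proved to be the counts divided by 1 factor per library and served in an alternative only.

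Genes were named from GENCODE vM21. Genes with enough counts (edgeR's filterByExpr by group, minimum 10), 19310 in all, were tested with edgeR 4.0.16 (quasi-likelihood, robust, TMM scaling) in 1 fit over the 4 groups with sex as a term, with Benjamini-Hochberg adjustment over all genes at 0.05. Levels are TMM-scaled counts relative to the library total (CPM), and SE is the absolute log2 change divided by the root of F. A gene at 0 counts in a group was bounded with 3 counts over the group, and at 1 to 3 counts given as a ratio with an exact 95% interval; both cover counting error only. The labels name no molecular identifiers. The keratins, their classes and the other gene lists were chosen with earlier results of these data known. Named are the keratins that passed in a comparison (up to 30 each by smallest p), those with a group mean of at least 10 CPM, the pairs Krt5/Krt14, Krt8/Krt18, Krt1/Krt10 and Krt4/Krt13, Aire, and from each partner list up to 3 genes a comparison with the smallest p; keratins named only in lists were named for their counts.

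Same-numbered KO mTEChi and KO mTEClo libraries had correlated deviations from their group means (0.139 to 0.222). They were also from mice of the same age, and the labels state no pairing. For KO mTEChi replicates 1 and 3, a KO mTEClo library of another number correlated more. In the other comparisons the correlations were -0.179 to 0.098. The fit was tested on simulated counts. Alternatives covered scaling (DESeq2 1.42.0 size factors, the deposited scaling), filters, thresholds, terms for sex, age, depth and mitochondrial counts, subsets of libraries and leaving out each library.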

Additional observations from a re-analysis of the deposited data

Results flagged for a closer look

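In 83 groups of libraries with a mean of at least 10 CPM for a keratin, 2 libraries stood far from the others, where chance gives about 1 in 20 groups. Krt19 had 183 CPM in WT mTEClo replicate 1, a shallow library, and 97.0 to 128 CPM in the other 7. Krt2 had 41.4 CPM in WT mTEChi replicate 7 and 8.71 to 18.0 CPM in the other 6.

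The KO change differed between gates, by the interaction term of edgeR's fit, for 17 keratins, and the values here are the log2 change in mTEChi minus that in mTEClo. It was more negative in mTEChi for Krt13 (-9.51), Krt72 (-6.93), Krt33a (-6.75), Krt26 (-6.51) and Krt36 (-5.84), each with at most 3 counts in 1 group or more, so that these fitted values are no measure of size. The other keratins with a more negative change were Krt33b (-4.96), Krt4 (-4.67), Krt15 (-3.86), Krt9 (-3.50), Krt83 (-3.41), Krt24 (-3.21), Krt71 (-2.75), Krt87 (-2.63), Krt19 (-2.07) and Krt5 (-0.67). It was more positive in mTEChi for Krt78 (1.00) and Krt20 (0.96). The call was lost without KO mTEClo replicate 1 for Krt24 (-2.57, adjusted p = 0.176) and Krt4 (-2.49, 0.392), without replicate 3 for Krt13 (adjusted p = 0.164) and Krt26 (1), and without replicate 4 for Krt36 (0.235), Krt20 (0.68, 0.124) and Krt78 (0.94, 0.0521). For Krt4 it was also lost without KO mTEChi replicate 3 (-4.26, 0.0558), and for Krt71 without any 1 of 6 libraries (WT mTEClo 6, KO mTEClo 1, 2 or 3, KO mTEChi 1 or 2; -2.88 to -2.25, adjusted p 0.0509 to 0.173).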

How the results depend on the processing

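Counts are keratins lower or higher in the first group named. With a term for the 6 libraries without mitochondrial counts 18 keratins were lower and 3 higher in KO mTEChi (37 and 1 in the reported fit), 4 higher in KO mTEClo (2), and 1 more positive in mTEChi than in mTEClo (2). For keratins higher in KO mTEChi, 0 were called at an adjusted p under 0.01 or in male libraries only, and 2 without the sex term, with age in the fit, with a term for the shallow libraries, without them, or with only the groups compared. For KO mTEClo, 5 were lower at an adjusted p under 0.01, 3 with age in the fit, 5 without the shallow libraries and 14 in the shallow libraries only, against 9; 0 were higher with age in the fit, 1 with only the groups compared, 1 with the replicate block, 4 with the KO mice of 5 weeks only and 1 with those of 6 weeks only. Between gates in WT, 10 were lower in the shallow libraries only (6), and in KO 5 were higher with only the groups compared and 5 with the replicate block (11); those 2 fits tested 23 keratins rather than 45, and the same 2 tested 25 for KO mTEClo. The KO change was more negative in mTEChi for 9 keratins at an adjusted p under 0.01 and 9 with KO mTEClo of 5 weeks only (15), and more positive for 1 without the low-count filter, 0 at an adjusted p under 0.01, 4 with a term for the shallow libraries, 1 without them and 1 with KO mTEClo of 6 weeks only (2); without 1 library it was 0 to 3, the 0 without KO mTEClo replicate 4. Krt7 in mTEChi changed sign with the mitochondrial term (0.32), and Krt7 in mTEClo in the shallow libraries only (0.21). Apart from keratins no longer tested, the cause of these changes was not tested. The labels do not say that replicate numbers pair libraries. In the comparisons other than that between KO gates, the block gave 36 lower and 1 higher in KO mTEChi and 6 and 1 in KO mTEClo. It gave 7 and 24 between WT gates and 15 and 2 for the difference of changes. Other scalings moved the median of all genes by at most 0.07 on the log2 scale. Alternatives on KO mTEClo by age, on the shallow libraries only and on libraries without mitochondrial counts were chosen after seeing the data. Of the called keratins, 17 of 37 lower in KO mTEChi, 2 of 9 lower in KO mTEClo and 25 of 26 higher in WT mTEChi were called under each alternative and left-out library in which they were tested. Of these, 16, 2 and 17 were tested in all of them. At these depths 9 keratins were too low for the test.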
